A study of Gossypium hirsutum with 9 samples.

Results

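The 154 genes described here had lower transcript levels at each increase of glucose in cultured cotton ovules, from 50 to 150 mM and again from 150 to 300 mM. They are 154 of the 80970 rows of the deposited tables, or of the 75376 rows that carry a Gohir gene ID. The plant was Gossypium hirsutum (upland cotton) of the strain TM-1, whose ovules were grown for 5 days on medium holding 50, 150 or 300 mM glucose, and each concentration had 3 RNA sequencing libraries. No group without glucose and no osmotic control are among the samples, so glucose as a sugar and the osmolarity of the medium cannot be told apart. The tissue is the whole ovule, with no separation of fibre from the other ovule cells stated in the labels, and nothing says how many ovules or cultures went into a library.

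A cotton fibre is a single epidermal cell of the seed coat that elongates outward from the ovule, and ovules floated on a defined medium can produce fibres outside the plant. The sugar of the medium is both their carbon source and a large part of its osmotic strength. Brassinosteroids, a class of steroid hormones of plants, promote fibre elongation, and the title of the series ties them to glucose in this process. The species is allotetraploid, carrying subgenomes called A and D, so many genes are present as an A copy and a D copy.

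Members were chosen on the measured steps themselves. Levels were FPKM, which scales the reads of a gene by its length and by the size of the library, and were averaged per group as log2(FPKM + 0.5). A member had a difference of -0.75 or lower at the first step (150 minus 50 mM) and at the second (300 minus 150 mM), and a mean FPKM of at least 2 at 50 mM. Every library at 150 mM also had to lie below every library at 50 mM, and every library at 300 mM below every library at 150 mM. Of 40150 Gohir IDs with the required level at 50 mM, 4050 met the threshold at the first step, 2480 at the second and 265 at both. Overlap between neighbouring groups removed 111 of these, which left the 154. Because the glucose steps chose the genes, their size is given as a description with no test. The rule mirrored, for genes rising at both steps to a mean FPKM of at least 2 at 300 mM, was met by 71 Gohir IDs.

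The files do not pair Gohir IDs with names or descriptions, and none of them occurs in the RefSeq gene table of the species, so no function is given for any member and the genes are described by their values, position in the ID order and coding length. The ID gives the subgenome, the chromosome and a number along it (Gohir.A03G204000 is on chromosome A03). Whole reads could be recovered from the deposited values, with totals of 17803779 to 19140297 reads per library. In a gene of 1000 bases 1 read corresponded to an FPKM of 0.05 to 0.0545. Across all tested genes, replicate 1 at 300 mM stood apart from its group, where its log2 levels correlated at 0.953 and 0.945 with replicates 2 and 3 at 300 mM and at 0.929 to 0.958 with the 150 mM libraries. Without this library the rule was met by 146 genes, of which 131 are among the 154, and without replicate 3 at 300 mM by 240, of which 148 are among them.

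Over the members, the level left at 150 mM had a median of 38.8% of the 50 mM level (range 7.54% to 60.3%), and at 300 mM of 15.5% (range 0% to 34.7%). The median log2 difference was -1.31 at the first step (range -3.47 to -0.75), -1.07 at the second (range -2.74 to -0.76) and -2.45 over both (range -6.00 to -1.53). The corresponding medians over the 50988 tested genes, those with 3 or more libraries at an FPKM of 1 or above, were 0.02, -0.00 and 0.01. All 154 members passed this filter, as the required level at 50 mM makes likely. A difference of -1 or lower was reached by 113 members at the first step, by 94 at the second and by 74 at both. In whole ovules, fewer cells of a type and less RNA per cell cannot be told apart, and no markers of cell types could be looked up by these IDs.

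At 50 mM the 154 genes took 0.891% ± 0.0417 of all reads (mean ± SD, n = 3), which became 0.360% ± 0.0359 on 150 mM glucose and 0.170% ± 0.0201 on 300 mM. By library it was 0.858%, 0.938% and 0.878% at 50 mM, 0.339%, 0.402% and 0.340% at 150 mM and 0.157%, 0.160% and 0.193% at 300 mM. The groups stand clear of each other, which is largely set by choosing genes whose groups do not overlap. Replicate 2 was the highest at 150 mM and replicate 3 the highest at 300 mM. The 8 most abundant members held 42.8% of the summed FPKM of the members at 50 mM, 42.7% at 150 mM and 42.8% at 300 mM, so their part of the sum was about the same at each concentration.

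**Figure D1:**
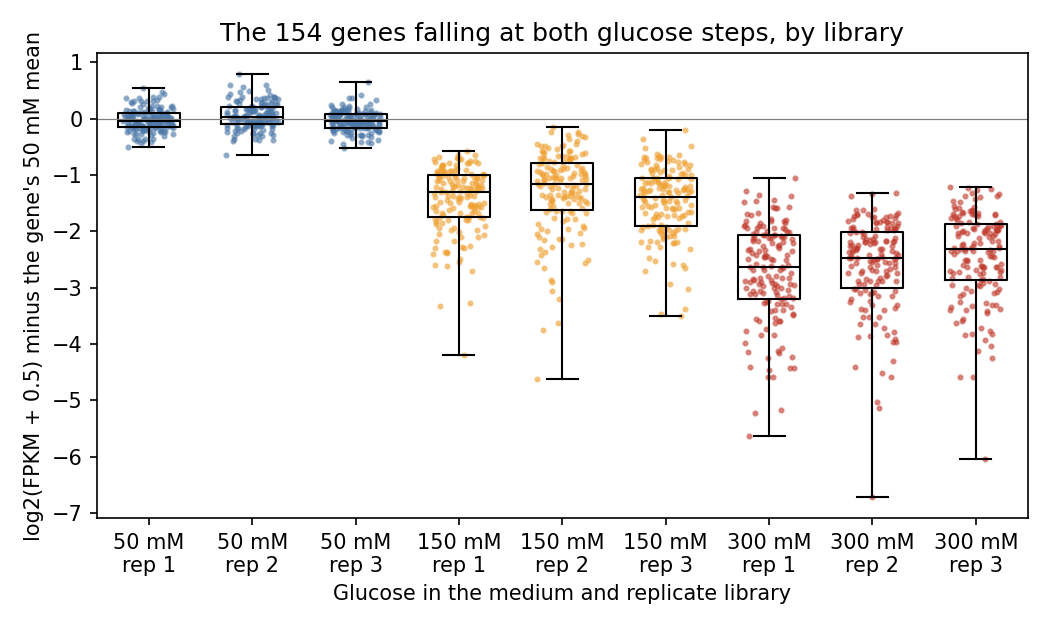
Level of each of the 154 genes in each of the 9 libraries, as log2(FPKM + 0.5) minus the gene's own mean at 50 mM. Points are genes, boxes give the quartiles with the median as a line, and whiskers reach the lowest and highest gene. The boxes step down from 50 to 150 mM and from 150 to 300 mM, as the choice of the genes requires, and replicate 2 at 150 mM and replicate 3 at 300 mM lie highest within their groups.

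A limma fit over all 50988 tested genes gave standard errors and a background for these steps. The fit used log2(FPKM + 0.5) and Benjamini-Hochberg adjustment. At 150 against 50 mM 146 members were lower at an adjusted p under 0.05, where 13.3% of all tested genes were. At 300 against 150 mM the count was 103 of 154, with a background of 4.80%, and at 300 against 50 mM it was 154 of 154, with a background of 16.3%. The count of 103 moved most with single libraries, with 58 members without replicate 1 and 64 without replicate 2 at 150 mM, 62 without replicate 2 at 300 mM, and 58 to 96 over all libraries left out in turn, against a background of 2.65% to 6.01%. Both steps passed for 100 members, or 51 to 88 with 1 library left out at a time, against 0.443% of all tested genes (226, or 86 to 249). Groups that did not overlap and were lower at both steps were found in 2.03% of tested genes. The rule used these contrasts, so the shares are read only as a description. Among members the standard error of a step ranged from 0.11 to 0.53, with the highest in Gohir.A03G204000.v2.1.

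On the log2(FPKM + 0.5) scale the largest fall over both steps belonged to Gohir.A03G204000.v2.1, a gene of 333 coding bases. Genes near 0 reads at 300 mM change places with the scale, and Gohir.D13G087000.v2.1 came first when limma-voom was run on recovered reads. The FPKM of Gohir.A03G204000.v2.1 was 44.5, 53.1 and 60.5 at 50 mM (replicates 1 to 3, as in every list of libraries here). It was 8.24, 1.64 and 7.88 at 150 mM, and 0.901, 0 and 0.301 at 300 mM. Replicate 2 was the low library at 150 mM, and at 300 mM the gene was close to absent, with 6, 0 and 2 reads. Its log2 difference was -3.29 at the first step and -2.71 at the second (SE 0.53 for each). Without replicate 2 at 150 mM these became -2.62 and -3.38, so that library moved part of the fall from the second step to the first.

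Gohir.A07G009100.v2.1 made most of its fall at the first step, which was the largest first step of all members on this scale and was behind that of Gohir.D13G087000.v2.1 with a pseudocount of 0.1 or with limma-voom. It went from 34.3, 36.9 and 38.3 at 50 mM to 3.19, 2.50 and 2.86 at 150 mM and 0.242, 1.11 and 1.45 at 300 mM. Each group was tight at 50 and 150 mM, with a log2 difference of -3.47, and the second step added -1.33 (SE 0.30 for each). Gohir.D02G225300.v2.1, with 333 coding bases like Gohir.A03G204000.v2.1, had a large second step. Its rank among members for that step was 1 on this scale, 5 with a pseudocount of 0.1 and 11 with limma-voom. Its libraries held FPKM values of 74.0, 117 and 88.0 at 50 mM, 32.5, 9.50 and 36.2 at 150 mM and 3.30, 2.30 and 3.31 at 300 mM. Replicate 2 was again the low library at 150 mM. The steps of this gene were -2.0 and -2.74 (SE 0.43 for each), or -1.40 and -3.34 without that replicate.

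Gohir.A02G017600.v2.1 combined a high level at 50 mM with one of the largest falls. The FPKM was 1069, 1043 and 944 at 50 mM, 105, 386 and 89.3 at 150 mM and 27.8, 28.3 and 71.1 at 300 mM. In this gene replicate 2 was the high library at 150 mM, and replicate 3 at 300 mM stood near replicates 1 and 3 at 150 mM without reaching them. The steps were -2.72 and -1.99 (SE 0.53 for each), and -3.39 and -1.33 without replicate 2 at 150 mM.

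Gohir.D13G087000.v2.1 was the only member with no read in any library at 300 mM. Its FPKM was 7.98, 12.8 and 15.1 at 50 mM and 0.156, 0.390 and 2.16 at 150 mM, from 653 and 51 reads in all. Against a floor of 3 reads over the group, its level at 300 mM was at least 231-fold lower than at 50 mM and at least 17.6-fold lower than at 150 mM, for counting error only. Most reads at 150 mM were in replicate 3, and without it the second bound was 5.22-fold. The fitted second step of -1.21 depends on the pseudocount and is no bound. It was -0.61 without replicate 3 at 150 mM, and the first step of -3.38 was then -3.98.

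The remaining genes among the 8 largest falls ended below an FPKM of 1 on average. Gohir.D05G355800.v2.1, of 192 coding bases, went from a mean of 21.5 ± 2.71 (SD, n = 3) to 4.04 ± 2.46 and 0.873 ± 0.600. Gohir.D05G023700.v2.1 went from 18.8 ± 2.87 to 2.28 ± 0.434 and 0.813 ± 0.475. Its coding length of 1911 bases makes it the longest of the 8, and its 300 mM libraries held 14, 49 and 29 reads. In Gohir.A11G170400.v2.1 the means were 8.38 ± 1.72, 1.64 ± 0.273 and 0.0879 ± 0.0801, with 3, 2 and 0 reads at 300 mM. The total log2 differences of these genes were -4.08, -3.93 and -3.91.

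**Figure D2:**
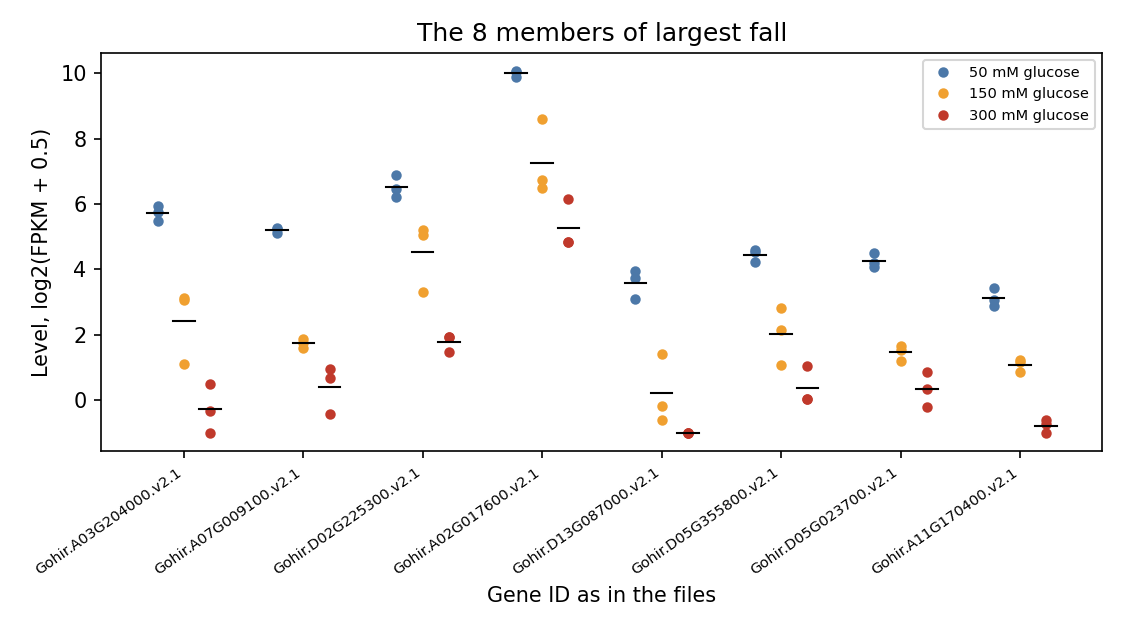
Levels of the 8 members of largest fall, as log2(FPKM + 0.5), with a point for each of 3 libraries per concentration and a line at the group mean. The groups do not overlap within any gene, by the rule, and the 150 mM libraries of Gohir.A03G204000.v2.1, Gohir.D02G225300.v2.1 and Gohir.A02G017600.v2.1 are widely spread, with replicate 2 lowest in the first and second and highest in the last-named.

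Levels at 50 mM covered a wide range. The median FPKM of the members was 20.4 at 50 mM, 8.10 at 150 mM and 3.35 at 300 mM, against 7.43, 7.55 and 7.35 over all tested genes. At 50 mM 23 members had a mean FPKM of at least 100 and 41 were under 10. At 300 mM 35 still had at least 10, 35 were under 1 and 20 were under 0.5, and 107 had an FPKM of at least 1 in every library. When members were split into 3 bins of like size by 50 mM level, the median total difference was -2.34, -2.44 and -2.67 from the lowest bin to the highest. In percent of the 50 mM level the order was not the same, with medians of 12.5%, 16.8% and 15.7% left at 300 mM. The added 0.5 shrinks log2 differences of genes with low levels, which bears on the log2 medians and on the correlation that follows. Across members, Spearman's rho between the 50 mM level and the total difference was -0.16 (n = 154), a weak relation between values that share the 50 mM libraries.

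The most abundant member, Gohir.A01G169400.v2.1, showed one of the smallest falls. Its FPKM was 1063, 1069 and 1011 at 50 mM, 585, 622 and 630.3 at 150 mM and 387, 269.8 and 434 at 300 mM. Libraries agreed closely at 50 and 150 mM and spread more at 300 mM, where replicate 2 was low. The steps were -0.77 and -0.78 (SE 0.17 for each), so 34.7% of the 50 mM level remained at 300 mM, the largest share left in any member.

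Gohir.A02G017600.v2.1, described above, and Gohir.D02G019800.v2.1 were next in level. The D02 gene had FPKM values of 564, 657 and 609.7 at 50 mM, 180.1, 341 and 183 at 150 mM and 62.7, 52.4 and 82.5 at 300 mM. Replicate 2 was the high library at 150 mM in both genes, and replicate 3 at 300 mM. Both have a coding length of 876 bases. At 50 mM the A02 gene was the higher of the pair in every library, and at 300 mM it was the lower in every library. Their total log2 differences were -4.71 and -3.22.

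Gohir.D07G086800.v2.1, of 237 coding bases, fell mostly at the second step. It had 418, 259.6 and 370.0 at 50 mM, 185, 249 and 164 at 150 mM and 55.7, 49.9 and 54.9 at 300 mM. The lowest 50 mM library was only just above the highest 150 mM library, whereas the 300 mM libraries were tight and far below. Gohir.D10G025000.v2.1 went from a mean of 332 ± 77.6 (SD, n = 3) to 104 ± 32.4 and 36.5 ± 20.0. Gohir.A13G058300.v2.1 started at nearly the same level, 328 ± 83.1, and made more of its fall at the first step, with 65.7 ± 6.27 at 150 mM and 32.4 ± 9.51 at 300 mM. The shortest of the 8, Gohir.D09G182100.v2.1 (174 coding bases), went from 264 ± 37.8 to 124 ± 31.9 and 67.8 ± 28.4, and Gohir.D12G144100.v2.1 from 262 ± 12.6 to 89.9 ± 42.0 and 40.2 ± 11.1. In Gohir.D12G144100.v2.1 the spread at 150 mM came from replicate 2, at 138 against 64.9 and 66.4.

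**Figure D3:**
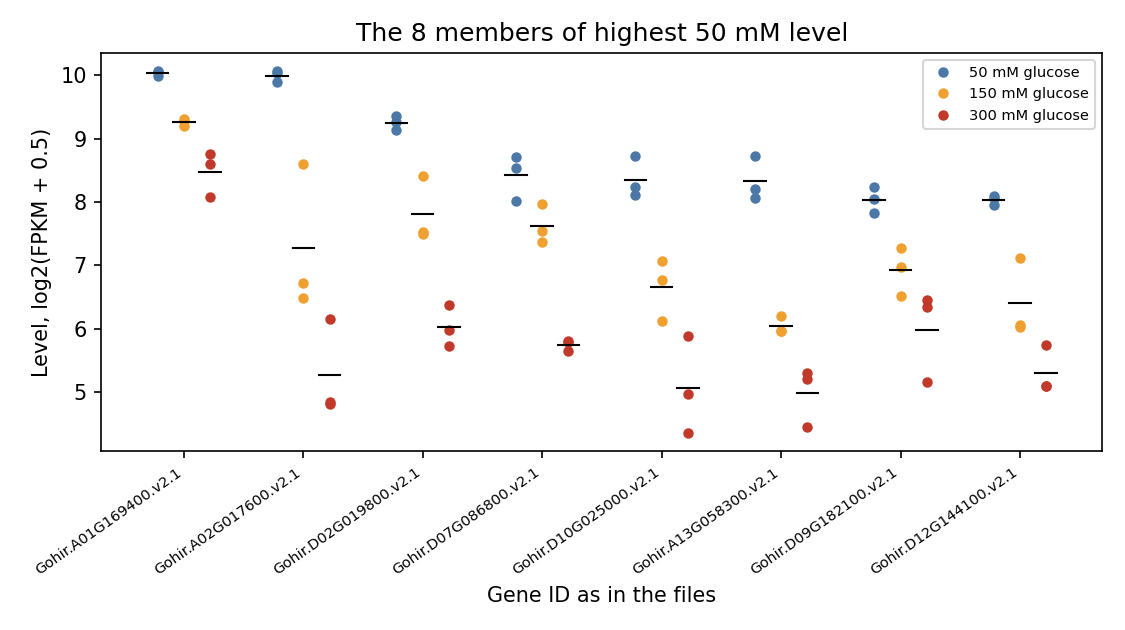
Levels of the 8 members of highest mean FPKM at 50 mM, as log2(FPKM + 0.5), with a point for each of 3 libraries per concentration and a line at the group mean. Gohir.A01G169400.v2.1 moves least and Gohir.A02G017600.v2.1 most, from nearly the same level at 50 mM.

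Members differed in how the fall was divided between the steps. The first step made up a median of 51.8% of the total log2 difference (range 30% to 73.6%). It was over 60% in 39 members, between 40% and 60% in 105 and under 40% in 10. The first step was the larger in 91 members and the second in 63. These shares and counts apply to the main scale only, since the shares of members with few reads left depend on the pseudocount. With limma-voom the share went from 54.9% to 45.9% in Gohir.A03G204000.v2.1 and from 52.3% to 35.4% in Gohir.A11G170400.v2.1. In the abundant Gohir.A02G017600.v2.1 it hardly moved, from 57.8% to 57.6%. Spearman's rho between the first and second step was 0.25 across members (n = 154), over values that share the 150 mM libraries. Noise in these libraries moves the steps in opposite directions, and the thresholds limit how uneven a small fall can be.

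The 4 members of earliest fall on the log2(FPKM + 0.5) scale were Gohir.D13G087000.v2.1, Gohir.A04G054200.v2.1, Gohir.D02G042133.v2.1 and Gohir.D02G134700.v2.1, with 72.4% to 73.6% of the difference at the first step. For Gohir.D13G087000.v2.1, at 0 reads at 300 mM, this share was set by the pseudocount and was 49.9% with limma-voom, whereas it was 70.3% to 72.2% for the other 3. Gohir.D02G134700.v2.1 was the most abundant of the 4. Its FPKM was 240.2, 282 and 223 at 50 mM, 37.3, 50.6 and 53.3 at 150 mM and 16.9, 23.5 and 37.0 at 300 mM. The step to 150 mM was far larger than any spread between libraries, while replicate 3 at 300 mM almost reached the lowest 150 mM library. Gohir.D02G042133.v2.1 had means of 49.0 ± 7.58, 9.52 ± 1.93 and 5.00 ± 0.864 (SD, n = 3), and Gohir.A04G054200.v2.1 of 18.3 ± 6.01, 2.93 ± 1.10 and 1.26 ± 0.173.

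At the other end stood Gohir.D07G086800.v2.1, Gohir.A13G041500.v2.1, Gohir.A13G016200.v2.1 and Gohir.A09G167500.v2.1, with 30% to 36.1% at the first step. In Gohir.A13G016200.v2.1 the libraries were 208, 218 and 181 at 50 mM, 90.5, 97.2 and 91.9 at 150 mM and 18.7, 23.1 and 19.8 at 300 mM. This gene had well separated groups, and its steps of -1.11 and -2.16 had an SE of 0.12 each. For Gohir.A09G167500.v2.1 the values were 37.5, 45.9 and 44.2, then 14.0, 23.7 and 13.9, then 1.78, 1.67 and 7.45, so that replicate 3 was the high library at 300 mM. The second step of -2.34 was -2.95 without it. Gohir.A13G041500.v2.1 was near the threshold at its first step, from 6.94 ± 0.582 to 4.01 ± 1.37, and went on to 1.13 ± 0.755.

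**Figure D4:**
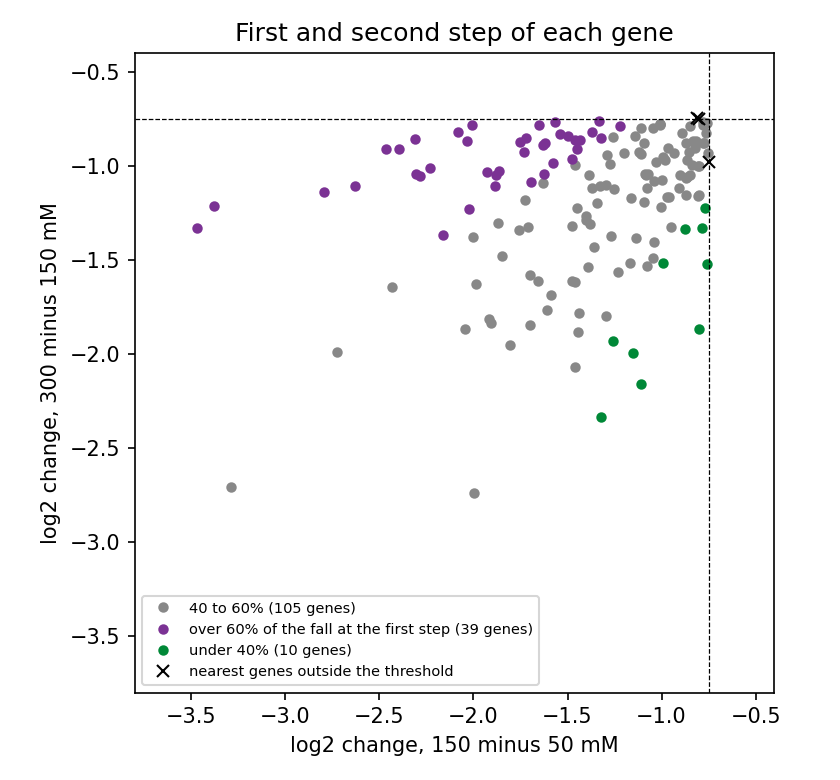
First against second step of each member on the log2(FPKM + 0.5) scale, with dashed lines at the threshold of -0.75, colours for the share of the fall made at the first step, and crosses for the 3 genes nearest outside the threshold. Both steps are -1 or lower in 74 of the 154 genes, and 20 genes reach a first step of -2 or lower against 5 for the second. The latter contrast depends on the pseudocount. With a pseudocount of 0.1, Gohir.A02G017600.v2.1 was still at -2 or lower for the second step at rank 24 among members. On that scale Gohir.D02G225300.v2.1 was at -2 or lower for the first step at rank 26. With limma-voom these ranks were 26 and 28.

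Values near the threshold run on smoothly. The members nearest inside it were Gohir.A05G294300.v2.1 with steps of -0.75 and -0.93, Gohir.D03G085800.v2.1 with -0.76 and -0.77, and Gohir.A13G041500.v2.1 with -0.76 and -1.52. Of the genes meeting every other criterion, those nearest outside were Gohir.A02G060900.v2.1 with -0.80 and -0.75 (just above the threshold before rounding), Gohir.D05G323000.v2.1 with -0.75 and -0.98, and Gohir.D13G061000.v2.1 with -0.81 and -0.74. The limma standard error of each step was 0.25 in Gohir.A05G294300.v2.1 and 0.22 in Gohir.D03G085800.v2.1, far more than the distance of these genes from the threshold.

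Low levels limited the precision at 300 mM for some members. With a mean FPKM under 0.5 there, as in 20 members, the size of the second step depends on the pseudocount. In 10 members at least 1 library had 0 reads at 300 mM, and 11 members had at most 10 reads over the 3 libraries together. Gohir.A04G052501.v2.1, chosen after its values were seen as the only member with 1 to 3 reads there, had 31 reads at 50 mM, 7 at 150 mM and 1 at 300 mM. By library the reads were 1, 5 and 1 at 150 mM and 1, 0 and 0 at 300 mM. Its lowest 150 mM library and highest 300 mM library held 1 read each, at an FPKM of 0.223 and 0.219. Only the library-size term kept these groups from overlapping. The ratio of 50 to 300 mM was 33.0 with a 95% exact conditional counting interval of 5.49 to 1344, and the ratio of 150 to 300 mM was 7.25 with an interval of 0.932 to 327. The last interval includes 1, so its second step was not detectable at this depth.

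Some libraries were high or low across many members, as their summed reads already showed. Replicate 2 was the highest of its 150 mM group in 76 members (49.4%), against 34.5% of all tested genes. It lay at least 1 log2 unit above the mean of its group's other libraries in 11 members (7.14%, against 2.58%). At 300 mM replicate 1 was the lowest in 85 members (55.2%, against 33.6%) and replicate 3 the highest in 78 (50.6%, against 34.0%). At 50 mM replicate 2 was the highest in 66 members (42.9%, against 34.8%). The part of these libraries in the division of the fall between the steps was not tested.

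The members were spread over both subgenomes and every chromosome. There were 76 among 23051 tested genes of the A subgenome (0.330%) and 78 among 23811 of the D subgenome (0.328%). Chromosome A05 held the most, 12 of 2948 tested genes (0.407%), and D02 the largest share, 10 of 1738 (0.575%), whereas D10 held 1 of 1755 (0.0570%). The coding length of members had a median of 835.5 bases, against 1059 for all tested Gohir genes, with a range of 162 to 4503. Spearman's rho of coding length with the total difference was 0.10 (n = 154).

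Members next to each other in the ID order were few, but their share was above that of all tested genes next to a member. In 3 pairs, 6 members had a member as the directly next ID (3.90%), against 0.414% of tested genes. Within 5 IDs on either side the count was still 6 (3.90%, against 2.03%), and within 10 it was 8 (5.19%, against 4.01%). Their levels and steps follow, and differences within a pair were not tested.

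On chromosome A03 the strongly falling Gohir.A03G204000.v2.1 lay next to Gohir.A03G203900.v2.1. The latter had lower levels, with 5.03, 4.60 and 4.82 at 50 mM, 1.96, 2.45 and 2.85 at 150 mM and 0.888, 0.695 and 0.419 at 300 mM. Its groups were well apart, with steps of -0.87 and -1.33 (SE 0.20 for each). On D07, Gohir.D07G198700.v2.1 went from 71.4 ± 5.13 to 35.1 ± 13.5 and 11.3 ± 1.56 (SD, n = 3), and Gohir.D07G198600.v2.1 from 15.3 ± 5.08 to 7.49 ± 2.13 and 3.17 ± 1.46. The steps were -1.08 and -1.53 in the first of these and -0.97 and -1.17 in the second. On D11, Gohir.D11G042800.v2.1 went from 20.4 ± 2.26 to 7.89 ± 1.44 and 3.62 ± 1.94, and Gohir.D11G042700.v2.1 from 5.77 ± 0.728 to 1.43 ± 0.415 and 0.293 ± 0.261.

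Genes directly beside a member had typical steps near 0. Over 188 tested next IDs that are no members, the median difference was -0.06 at the first step and -0.07 at the second. By their means, 54 of them (28.7%) were lower at both steps, against 20.4% of all tested genes. In the limma fit 55 of 188 (29.3%) were lower at 300 than at 50 mM at an adjusted p under 0.05, where 16.3% of all tested genes were, and 26 were higher. At the first step 44 passed as lower (23.4%, against 13.3%) and 25 as higher, and at the second 17 as lower (9.04%, against 4.80%) and 1 as higher. Of all 50988 tested genes, 8170 were higher at 300 than at 50 mM, 8145 at the first step and 668 at the second. The next IDs were not chosen by their own values, although they share libraries with the members and non-members were kept by definition.

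To see how a likely counterpart in the other subgenome behaved, each member was matched to the tested IDs of the same chromosome number in the other subgenome with an equal coding length and an ID number within 5000. Exactly 1 such ID was found for 43 members (27.9%, against 24.4% of tested IDs on chromosomes), none for 107 and more than 1 for 4. The files do not state which A and D genes are copies of each other, and how reads shared by near-identical genes were handled is not known from the sources used here. A matched ID can therefore be an unrelated gene, or can hold reads of its partner.

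In 4 matched pairs both genes were members. Besides the A02 and D02 pair of 876 bases, these were Gohir.A05G162200.v2.1 with Gohir.D05G165000.v2.1 (948 bases), Gohir.A05G165900.v2.1 with Gohir.D05G168900.v2.1 (1584 bases), and Gohir.A07G019200.v2.1 with Gohir.D07G019000.v2.1 (768 bases). The total differences within these 3 pairs were close, at -2.12 and -1.97, -2.67 and -2.78, and -1.78 and -2.01. The A05 and D05 pair of 1584 bases was abundant, with the A05 gene going from 179 ± 16.7 to 65.4 ± 8.39 and 28.3 ± 7.53 and the D05 gene from 262 ± 27.7 to 80.8 ± 11.7 and 38.8 ± 12.1 (SD, n = 3).

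The other 36 matched IDs were no members, and most were lower at high glucose too. In the limma fit 26 of 36 (72.2%) were lower at 300 than at 50 mM at an adjusted p under 0.05, against 16.3% of all tested genes, and the count was 22 to 26 in every alternative run. By their means, 2 of the 36 were higher at 300 than at 50 mM. The count was 15 (41.7%, background 13.3%) for 150 against 50 mM, 7 (19.4%, background 4.80%) for 300 against 150 mM, and 2 for both steps. Their median total difference was -1.42, against -2.19 for the 43 members, with a range of -4.95 to 0.50. A smaller median is favoured by the choice of genes, since members had to fall at both steps and matched IDs that met the rule were set aside. The 43 also include 7 members whose matched ID is a member. A total of -1 or lower was reached by 23 (63.9%), against 7.67% of all tested genes. Other windows of the ID number gave 83.3% of 18 (within 2000) and 60% of 45 (within 10000).

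The matched ID of largest fall, named after its values were seen, was Gohir.A05G103200.v2.1, matched to the member Gohir.D05G102900.v2.1. Its FPKM went from 66.7 ± 15 to 3.53 ± 1.75 and 1.76 ± 0.866 (SD, n = 3), a total of -4.95 (SE 0.38, limma adjusted p = 5.71e-05). Its groups at 150 and 300 mM were close, with a second step of -0.80. Gohir.A12G139600.v2.1, matched to Gohir.D12G144100.v2.1, was the more abundant of its pair, at 536 ± 68.2, 222 ± 67.1 and 126 ± 41.2, with steps of -1.30 and -0.82.

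Other matched IDs had totals near 0, and their difference from the member was not tested. These too were named after their values were seen. Beside the neighbouring members on D11, the matched IDs Gohir.A11G038700.v2.1 and Gohir.A11G038800.v2.1 had totals of -0.41 and 0.20, against -2.43 for Gohir.D11G042800.v2.1 and -3.04 for Gohir.D11G042700.v2.1. The level of Gohir.A11G038800.v2.1 was 12.9 ± 0.463 at 50 mM, 11.5 ± 1.22 at 150 mM and 14.9 ± 1.22 at 300 mM. Likewise Gohir.A07G197400.v2.1, matched to Gohir.D07G198700.v2.1, had 99.2 ± 4.30, 113 ± 15.4 and 88.6 ± 8.88, a total of -0.17 against -2.61. At 50 mM the member had 71.4 ± 5.13, below its matched ID, and at 300 mM 11.3 ± 1.56.

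**Figure D5:**
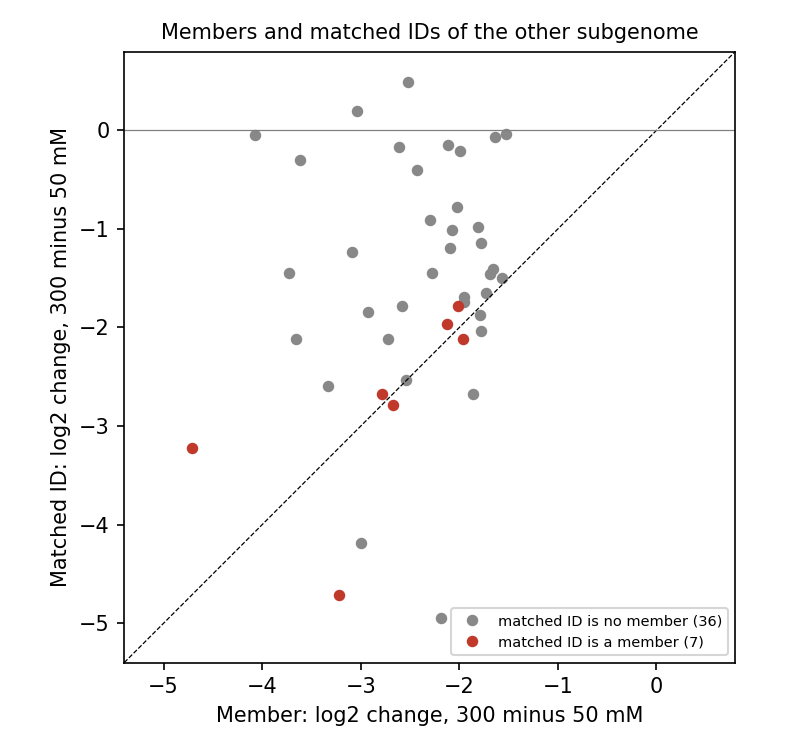
Log2 difference of 300 minus 50 mM in each of 43 members (x axis) and in its matched ID of the other subgenome (y axis), on the log2(FPKM + 0.5) scale. Red points have a member as matched ID (7, since 1 gene of the 4 pairs had more than 1 match), grey points do not (36), and the dashed line marks equal differences. Most grey points lie below 0 on the y axis and above the dashed line, and 2 lie above 0. A place above the dashed line is favoured by choosing the members, and not the grey matched IDs, for their falls.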

How the data were processed

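RNA of 9 libraries was measured, 3 for each glucose concentration, grouped by the treatment in the labels. The tools named are HISAT2, an aligner, and featureCounts 1.5.0-p3, a read counter (per the submitters' processing notes). For the build, annotation, strand setting and library-size term, the sources used here give nothing. The authors deposited FPKM values for 80970 rows per library. Reads behind all 68279 rows above 0 were recovered as whole numbers within a tolerance of 0.0001, after a factor for each library and a length of up to 60000 bases for each gene. Of the recovered Gohir lengths with at least 100 reads, 95.5% were divisible by 3, and they are called coding lengths. Among members 152 of 154 were. Intervals and floors from reads cover counting error only.

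The members, lists and tests were chosen with earlier results of these data known. Log2(FPKM + 0.5) was fitted with limma 3.58.1 (mean trend, robust, statmod 1.5.0, R 4.3.3) on the 50988 genes that reached an FPKM of 1 in 3 or more libraries, with all 9 libraries in 1 fit and glucose its only term, two-sided, adjusted by Benjamini-Hochberg at 0.05. No p is given for a member at a step. The labels do not say whether libraries came from separate cultures, so a p-value reflects only how these libraries vary, which may be technical. No pair of libraries agreed within sampling noise (chi-square per degree of freedom of 4.45 to 17.1 within groups). Tables were handled with Python 3.11.15, pandas 2.3.3, numpy 2.4.6 and scipy 1.17.1.

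Genes are named by a rule: the 8 members of largest total fall, the 8 of highest mean FPKM at 50 mM, the 4 with the largest and the 4 with the smallest share of the fall at the first step, members next to each other in ID order, and the 3 genes nearest the threshold on each side, 31 genes in all, of which 28 are members. The matching of IDs between subgenomes and its windows, and limma-voom for the named genes, were chosen after the data were seen. Alternatives were other pseudocounts, filters, scalings and thresholds, the replicate number as a block, limma-voom on recovered reads, and each library left out. None of the IDs matched the RefSeq table of 99454 genes (0 matches), so lists by description were not used and no sequences are shown.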

Additional observations from a re-analysis of the deposited data

How the results depend on the processing

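The number of genes meeting the rule depended on its thresholds. Steps of -0.5 gave 306 genes, steps of -1 gave 74, and 265 met the rule with overlap allowed. With 1 library left out at a time it was 146 to 240 genes. The count of 240 was reached without replicate 3 at 300 mM, and 148 of the 154 were among them. Scalings, pseudocounts and minimum levels gave 117 to 184. Scaling to recovered reads gave 117, all among the 154, and moved the median log2 difference of all tested genes from 0.01 to 0.13 for 300 against 50 mM.

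The same omissions left between 4378 and 7307 lower genes at the first step (6779 with all libraries), between 1338 and 3038 at the second (2445), and between 5698 and 8332 from 50 to 300 mM (8286). The first count was 4516 and 4378 without replicates 1 and 2 at 50 mM. The second was 1455 and 1417 without replicates 1 and 2 at 150 mM, and 1338 without replicate 2 at 300 mM. Among members the same omissions left 119 to 149 lower at the first step (146 with all libraries) and 58 to 96 at the second (103). They left 51 to 88 at both (100), and 153 to 154 from 50 to 300 mM (154). Without a 50 mM library 153 members passed the filter, and all 153 were lower from 50 to 300 mM. With the replicate block the counts over all genes were 5893, 1717 and 7313, and 124 were lower at both steps instead of 226. Among members they were 139, 70 and 154, and 67 at both steps. With limma-voom on recovered reads 77 members were lower at the second step (background 4.98%) and 77 at both. With no filter on low values 73 were lower at the second step (background 2.93%) and 71 at both. Same-numbered libraries did not deviate together, with correlations of -0.275 to 0.102, against -0.246 to 0.237 for libraries of other numbers. No pairing by number was seen, but with 3 libraries per group this cannot exclude a shared culture or batch. Of the 36 matched IDs that are no members, 22 to 26 were lower for 300 against 50 mM in every alternative run.

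All 62 steps of the 31 named genes kept their sign in the 16 alternatives run. Leaving out a library or changing the pseudocount could not reverse a sign, because neighbouring groups do not overlap in any of these genes. The 15 of 992 values that moved by more than the spread between replicates were those with other pseudocounts or limma-voom on recovered reads. Leaving out a library could not move a step beyond this spread, which combines the SDs of both groups. The replicate block leaves the steps of this balanced design unchanged. The count of 15 therefore speaks only for the pseudocounts, scalings and limma-voom, and says nothing on single libraries. For Gohir.A11G170400.v2.1 the second step of -1.87 was -3.31 with a pseudocount of 0.1 and -4.26 with limma-voom. Depth limits the second step of members with few reads at 300 mM.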

Other observations

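Besides the 154 Gohir genes, 2 of the 5594 loci that carry a number in place of a Gohir ID met every other criterion. The first, of 1299 bases, had FPKM values of 53.5, 53.0 and 54.8 at 50 mM, 32.4, 25.4 and 33.5 at 150 mM and 15.5, 14.6 and 14.1 at 300 mM. The second, of 3513 bases, had 4.49, 4.52 and 3.93 at 50 mM, 1.33, 1.38 and 1.36 at 150 mM and 0.470, 0.539 and 0.585 at 300 mM. In both, the libraries of a group lay close together and the groups were well apart.

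The members Gohir.A09G080900.v2.1 and Gohir.D09G080900.v2.1 share their ID number and chromosome number in the A and D subgenomes. Their coding lengths of 570 and 546 bases differ, so they were not matched by equal length.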
